A study of Mus musculus with 29 samples.

Results

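The genes of MHC class II antigen presentation were followed through a mouse model of heart failure and its recovery. They were taken by name from the deposited expression table, which holds 29955 genes, and comprise 7 of them: H2-Aa, H2-Ab1 and H2-Eb1 (chains of the class II molecules that display peptides), Cd74 (the invariant chain), H2-DMa and H2-DMb1 (the peptide-exchange molecule H2-DM) and Ciita (the class II transactivator). All 7 were found, and 6 passed the filter on low values used for testing. Ciita did not. The table holds poly(A) RNA sequencing of ventricular tissue from male C57BL6 mice as FPKM, the fragments of a gene scaled to its length and to the size of the library, so levels may be compared between genes.

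Mice aged 3 months at the start drank water with L-NAME (which blocks the enzymes that make nitric oxide) at 0.3 mg/ml and 1% NaCl for 5 weeks, and from week 1 an osmotic pump delivered angiotensin II at 0.7 mg/kg/day for 28 days. The heart failure groups are HF week 3 (2 libraries) and HF week 5 (3 libraries, the end of the treatment). After normal water was restored and the pump had run out, hearts were taken as Recovery week 7 (2 libraries), Recovery week 9 (2, of 3 labelled samples), Recovery week 11 (3), Recovery week 13 (2) and Recovery week 19 (5). Untreated Control week 19 mice (5 libraries) were the age-matched control of the last recovery point and were 14 weeks further on than HF week 5. The labels name no transgene. The labels do not say whether libraries of a group came from separate hearts or from one cohort, so p-values measure the spread between these libraries.

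Class II molecules present peptides from endosomes to CD4+ T cells. Dendritic cells, B cells and macrophages make them constitutively or on activation, and interferon gamma induces them in other cells through Ciita, which joins the RFX, NF-Y and CREB proteins on a shared promoter module of X and Y boxes. Cd74 guards the new molecule until endosomal proteases remove it, and H2-DM then exchanges its last fragment for a peptide. In a whole-tissue library, fewer cells of a type and less RNA per cell cannot be told apart.

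The promoter module is shown first because it is what these genes are known to share beyond their names. RefSeq promoter windows (mouse build GRCm38.p6, which is not the build of the expression table) were at hand for 4 of the 7 genes, H2-Aa, H2-Eb1, H2-DMa and H2-DMb1, and not for H2-Ab1, Cd74 or Ciita. The 150 bases before the start site are printed for the 3 genes in which letters of the module were found, with the X box (14 letters, any base allowed at the third), the Y box (TGATTGG) and the CRE (TGACGTCA) in capitals. H2-Aa lies at chr17:34287824-34287973 on the minus strand, H2-Eb1 at chr17:34305717-34305866 and H2-DMb1 at chr17:34153041-34153190, both on the plus strand.
H2-Aa: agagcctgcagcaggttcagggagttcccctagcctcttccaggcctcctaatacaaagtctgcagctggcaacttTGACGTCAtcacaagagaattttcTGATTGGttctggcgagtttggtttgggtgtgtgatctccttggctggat
H2-Eb1: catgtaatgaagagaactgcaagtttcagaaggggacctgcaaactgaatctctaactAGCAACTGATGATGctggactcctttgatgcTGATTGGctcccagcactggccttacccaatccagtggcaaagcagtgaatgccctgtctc
H2-DMb1: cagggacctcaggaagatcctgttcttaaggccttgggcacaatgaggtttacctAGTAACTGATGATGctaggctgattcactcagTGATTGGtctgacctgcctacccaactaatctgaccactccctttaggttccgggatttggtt

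The Y box stood 61 to 55 bases before the start in H2-Eb1 and 63 to 57 bases before it in H2-DMb1, each with an X box upstream. In H2-Aa the Y box stood 50 to 44 bases before the start, with a CRE upstream at 74 to 67 bases. The 2 H2-DMa windows held none of these letters, which says only that the exact letters are not in that stretch. Searched on both strands over 32851 RefSeq windows of 250 bases before to 50 bases after a start, the Y box was in 7.82% of windows, the CRE in 1.79% and the X box in 0.00913%, that is in 3 windows. An X box followed by a Y box on one strand was in 2 windows, those of H2-Eb1 and H2-DMb1. The X boxes of these 2 genes differ only at the third letter, the one left free in the search. These X box counts therefore describe that exact pattern and say nothing of looser forms, in H2-Aa or elsewhere. The motifs do not overlap one another, and a match is a description of the sequence, not of binding.

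Some libraries stood apart before any class II gene was read. Summed FPKM ran from 618138 to 1332640 over the 24 libraries. Myh6, the main heavy chain of adult mouse heart muscle, is listed at 0 in all 13 libraries of Control week 19, HF week 5 and Recovery week 19 and at 37546 to 316195 in the other 11, and no other gene was at 0 in those 13 and above 5 FPKM in each of the 11. Atrial genes were present in libraries labelled as ventricle: Myl7, the atrial myosin light chain, was at 1805 and 5773 FPKM in the HF week 3 libraries, at 18388 in HF week 5 library 1 and at 152 in HF week 5 library 2, against at most 6.16 in the other 20. HF week 3 library 1 had 12816 genes above 0, against 16339 to 18091 in the rest. The part of these differences in the class II values was not tested.

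Cd74 was the most abundant of the 7 genes in all 24 libraries, and Ciita the least abundant in all 24. Mean levels over the libraries were 213 FPKM for Cd74, 92.4 for H2-Ab1, 87.8 for H2-Aa, 68.9 for H2-Eb1, 5.59 for H2-DMb1, 5.37 for H2-DMa and 0.160 for Ciita. The 3 peptide-presenting chains were above both H2-DM chains in every library. H2-Eb1 was the lowest of the 3 in 23 of 24 libraries, whereas H2-Aa was above H2-Ab1 in 10 of 24 and H2-DMa above H2-DMb1 in 14 of 24, so neither of those pairs had a fixed order. The exception for H2-Eb1 was HF week 3 library 1, in which the ratio of H2-Eb1 to H2-Ab1 was 1.38 against a median of 0.732, and that of Cd74 to H2-Ab1 3.57 against 2.28.

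Cd74 binds new class II dimers and is also their chaperone. In Control week 19 it was at 203, 238, 149, 135 and 257 FPKM (197 ± 53.7, SD, n = 5). HF week 3 gave 271 and 241 FPKM, and HF week 5 gave 297, 148 and 310 (252 ± 89.7, SD, n = 3). HF week 5 library 2 was thus near the lower controls, and the other 2 were above all controls. Recovery week 7 gave 112 and 130 FPKM, Recovery week 9 gave 152 and 202, Recovery week 11 gave 238, 207 and 229, and Recovery week 13 gave 304 and 393. Levels in these 4 groups were ordered by week, and none of the 4 overlapped with another. Recovery week 19 ranged over 151, 163, 177, 132 and 281 FPKM (181 ± 58.3, SD, n = 5), within the span of the controls except for its lowest and highest library. In the order of means, Recovery week 13 stood first and clear of the next group, HF week 3. It was not clear of HF week 5, whose library 3 (310 FPKM) was above Recovery week 13 library 1 (304 FPKM). Recovery week 7 stood last and clear of Recovery week 9, and the neighbours among the other 6 groups overlapped.

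H2-Aa encodes the alpha chain of I-A. Control week 19 gave 81.9, 97.8, 61.2, 55.8 and 129 FPKM, and HF week 5 gave 126, 59.1 and 130. The HF week 3 libraries were at 80.6 and 95.7 FPKM, inside the control range. H2-Aa was at 46.1 and 53.0 FPKM in Recovery week 7, 62.0 and 72.4 in Recovery week 9, 92.7, 85.6 and 97.4 in Recovery week 11, and 135 and 176 in Recovery week 13. Both Recovery week 7 libraries were below every other library used, and both Recovery week 13 libraries above. Recovery week 19 gave 59.7, 64.9, 72.0, 54.0 and 118 FPKM, with library 5 apart from the other 4.

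H2-Ab1, the beta chain of I-A, was at 90.9 ± 25.4 FPKM (SD, n = 5) in Control week 19 and at 125, 59.5 and 131 FPKM in HF week 5. Recovery week 7 gave 38.0 and 61.0 FPKM, Recovery week 9 gave 59.9 and 92.1, Recovery week 11 gave 89.7, 89.8 and 93.4, and Recovery week 13 gave 125 and 174. In Recovery week 19 it was at 92.3 ± 20.7 FPKM (SD, n = 5). Recovery week 7 was again last and Recovery week 13 first in the order of group means, but, as for H2-Eb1, H2-DMa and H2-DMb1, every neighbouring pair in that order overlapped.

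H2-Eb1, the beta chain of I-E, was at 67.8 ± 21.0 FPKM (SD, n = 5) in Control week 19, 105 and 68.7 FPKM in HF week 3 and 86.4, 42.0 and 88.0 FPKM in HF week 5. Recovery week 7 held the lowest library, at 30.7 FPKM, beside one at 43.7, and Recovery week 13 held the highest, at 134, beside one at 101. The paralogue H2-Eb2 had a mean of 0.0112 FPKM. C57BL6 mice are known to lack a working alpha chain of I-E, and its row, H2-Ea-ps, is listed at 0 in all 24 libraries.

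H2-DMa was at 4.72 ± 1.11 FPKM (SD, n = 5) in Control week 19, 7.35, 4.29 and 7.53 FPKM in HF week 5, 3.19 and 3.91 in Recovery week 7, and 7.36 and 11.5 in Recovery week 13. H2-DMb1 was at 5.40 ± 2.38 FPKM (SD, n = 5) in Control week 19, 10.7, 4.25 and 9.81 FPKM in HF week 5, 2.75 and 3.49 in Recovery week 7, and 7.86 and 12.5 in Recovery week 13. HF week 5 library 2 was again the low one of its group for both chains. H2-DMb1 has a closely similar neighbour, H2-DMb2, at a mean of 0.251 FPKM, between which the counting could have split reads.

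Ciita was low throughout, from 0.0329 FPKM in Recovery week 9 library 1 to 0.321 in HF week 5 library 1. HF week 5 gave 0.321, 0.109 and 0.316 FPKM, against 0.179, 0.0871, 0.130, 0.129 and 0.200 in Control week 19. Its 2 high HF week 5 libraries were the same as for the other 6 genes, and its groups overlapped throughout the order of means. Fitted without the filter, Ciita differed by 0.20 on the log2 scale between HF week 5 and Control week 19 (SE 0.105, adjusted p = 0.297, limma).

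**Figure D1:**
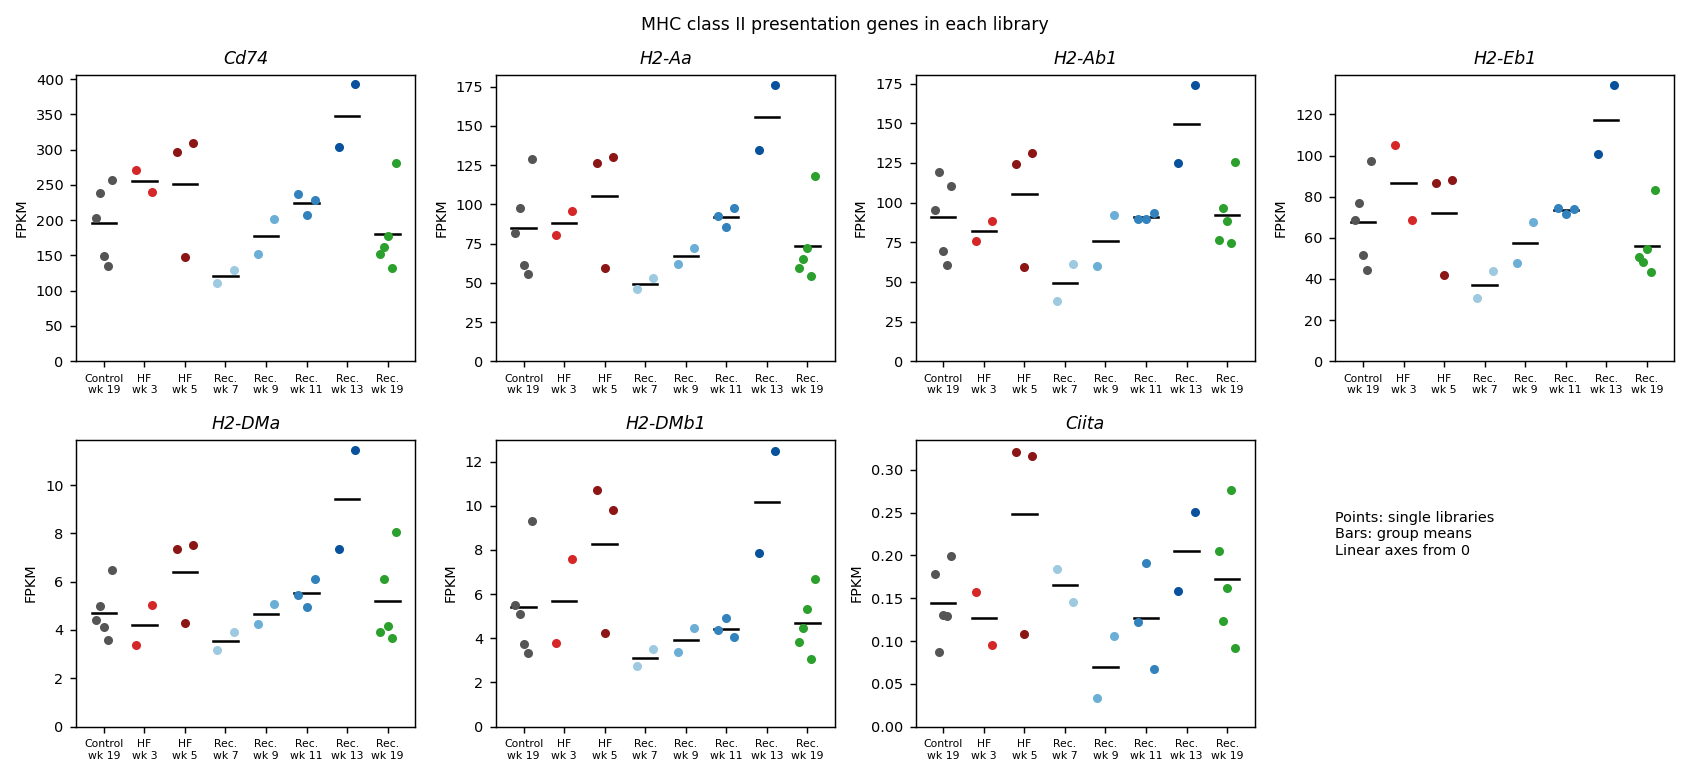
FPKM of each class II gene in each of the 24 libraries (points, linear axes from 0) by group, with the group mean as a bar. In all genes but Ciita the lowest library was Recovery week 7 library 1 and the highest was Recovery week 13 library 2, and 1 HF week 5 library lay well below the other 2.

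Heart failure at the end of the treatment was compared with Control week 19 first. No class II gene passed the test: 0 of 6 were called at an adjusted p under 0.05 (limma on log2(FPKM + 0.5), Benjamini-Hochberg adjustment over 12759 genes), in a comparison in which 24.0% of all genes tested were called. At an unadjusted p under 0.05 the count was also 0 of 6, against 36.5% of all genes. Differences were 0.56 for H2-DMb1 (SE 0.314, adjusted p = 0.209), 0.39 for H2-DMa (SE 0.237, adjusted p = 0.250), 0.33 for Cd74 (SE 0.258, adjusted p = 0.382), 0.29 for H2-Aa (SE 0.279, adjusted p = 0.490), 0.17 for H2-Ab1 (SE 0.266, adjusted p = 0.676) and 0.07 for H2-Eb1 (SE 0.272, adjusted p = 0.880), all log2 differences by limma. Without HF week 5 library 1 the differences were 0.33 for H2-DMb1, 0.27 for H2-DMa, 0.17 for Cd74, 0.11 for H2-Aa, 0.0074 for H2-Ab1 and -0.10 for H2-Eb1, and 10.7% of all genes were called. Without HF week 5 library 2 they ran from 0.42 to 0.95, and H2-DMb1 was called (0.95, adjusted p = 0.0370, limma), with 24.0% of all genes called in that fit. Without HF week 5 library 3 the H2-Eb1 difference was -0.11 and that of H2-Ab1 -0.03, so the direction of these 2 genes rested on single libraries. On a log2(FPKM + 0.5) scale the changes of low genes such as Ciita are understated.

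At HF week 3, 0 of 6 class II genes were called against Control week 19, with log2 differences from -0.15 to 0.42, whereas 50.7% of all genes were called and 57.1% had an unadjusted p under 0.05. This comparison rests on 2 libraries that also held the atrial genes. Between HF week 5 and HF week 3, 0 of 6 were called, with differences from -0.31 to 0.54, beside 21.4% of all genes and 39.1% without adjustment. The unadjusted count was 0 of 6 in both comparisons by limma.

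After the treatment ended, the log2 differences of all 6 tested class II genes were negative at Recovery week 7 against HF week 5. In this comparison 3 of 6 were called, all lower: H2-DMb1 fell by 1.18 on the log2 scale (SE 0.392, adjusted p = 0.0475), H2-Ab1 by 1.03 (SE 0.332, adjusted p = 0.0424) and Cd74 by 0.99 (SE 0.322, adjusted p = 0.0455), by limma. The other 3 differences were -0.998 for H2-Aa (adjusted p = 0.0597), -0.89 for H2-Eb1 (adjusted p = 0.0823) and -0.74 for H2-DMa (adjusted p = 0.0997), by limma. Of all genes, 14.8% were called, and all 6 class II genes had an unadjusted p under 0.05, as did 29.8% of all genes. H2-Aa, H2-DMa, H2-DMb1 and Cd74 did not overlap between these groups, while H2-Ab1 and H2-Eb1 did through HF week 5 library 2. How many of all genes did not overlap between them was not counted. With each library scaled to one sum over all genes but Myh6, an alternative added after the data were seen, Cd74, H2-Aa and H2-DMa overlapped as well.

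All 6 differences were negative under every alternative run, but the calls were not stable. Without HF week 5 library 2 the count was 6 of 6, with 16.9% of all genes called. Without HF week 5 library 1, HF week 5 library 3, Recovery week 7 library 1 or Recovery week 7 library 2 it was 0, with 6.52%, 12.3%, 3.58% and 2.98% of all genes called. HF week 5 library 1 held the atrial genes at the highest level of all libraries, and library 2 held them at a lower level. The comparison also crosses the divide in the listing of Myh6.

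**Figure D2:**
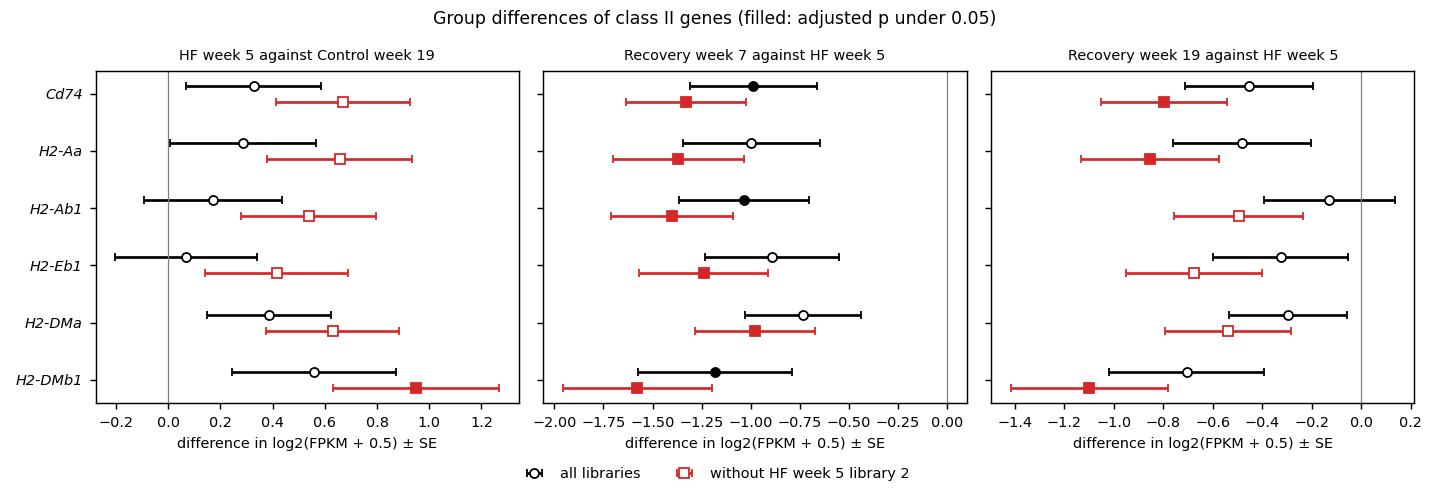
Log2 differences with standard errors for the 6 tested class II genes in 3 comparisons, with all libraries (black) and without HF week 5 library 2 (red), with filled symbols for an adjusted p under 0.05. The 3 filled black symbols are H2-Ab1, H2-DMb1 and Cd74 at Recovery week 7, and leaving out that library moved every difference away from 0.

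Recovery week 19 was compared with HF week 5 and with its own control. Against HF week 5, 0 of 6 class II genes were called, with differences from -0.71 for H2-DMb1 (SE 0.314, adjusted p = 0.108) to -0.13 for H2-Ab1 (SE 0.266, adjusted p = 0.760) by limma, while 24.2% of all genes were called. H2-DMb1 was the 1 gene of 6 with an unadjusted p under 0.05, beside 36.8% of all genes. Without HF week 5 library 2, 3 of 6 were called lower: H2-DMb1 at -1.10, H2-Aa at -0.85 and Cd74 at -0.80, in a fit with 10.9% of all genes called lower. Against Control week 19, 0 of 6 were called at either threshold, with differences from -0.26 to 0.09, and only 0.0235% of all genes were called (2.88% without adjustment).

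The mean of Recovery weeks 7 to 13 gave 0 of 6 class II genes called against Control week 19 at either threshold, with differences from -0.08 to 0.20, beside 0.0705% of all genes called and 6.90% without adjustment. That mean joins the lowest and the highest groups of the series. Recovery week 13 was therefore set against Recovery week 7, a comparison chosen after the values had been seen, between libraries on one side of the divide in Myh6. The fold between the group means was 3.26 for H2-DMb1, 3.16 for H2-Eb1, 3.14 for H2-Aa, 3.02 for H2-Ab1, 2.88 for Cd74 and 2.65 for H2-DMa. For these genes no library of one group reached the other, but how many of all genes separated likewise was not counted. Ciita had a fold of 1.24 with overlapping groups.

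Log2 differences between Recovery week 13 and Recovery week 7 ran from 1.27 for H2-DMa (SE 0.325) to 1.65 for H2-Eb1 (SE 0.373) by limma, and 0 of 6 passed adjustment over all genes (adjusted p from 0.155 to 0.252). All 6 had an unadjusted p under 0.05, as did 11.6% of all genes, of which 0.00784% were called after adjustment. With only these 4 libraries in the fit, 6 of 6 were called, beside 5.24% of all genes. Summed FPKM without Myh6 was also higher in Recovery week 13 (1016445 and 935228) than in Recovery week 7 (638721 and 817054). With each library scaled to one sum over all genes but Myh6, the differences were 0.88 to 1.22, none called, and the median over all genes was -0.38. Cd74 on that scale, in parts of 1e+06, was at 159 and 175 in Recovery week 7 and at 299 and 420 in Recovery week 13.

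Recovery week 13 was also above Control week 19, with log2 differences of 0.74 to 0.92, again a comparison chosen after seeing the values. No class II gene was called after adjustment (0.0784% of all genes were), while 6 of 6 had an unadjusted p under 0.05, against 10.4% of all genes by limma. H2-DMb1 overlapped with the highest control, and the other 5 did not, but the share of all genes without overlap was not counted. After the scaling without Myh6, Cd74, H2-Aa, H2-Ab1 and H2-Eb1 overlapped with the controls too, and the median difference of the 6 genes was 0.54, against -0.30 over all genes.

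The 6 tested genes moved together from library to library. Over the 24 libraries and on the log2 scale, Cd74 had a Pearson r of 0.970 with H2-Eb1, 0.969 with H2-Aa, 0.889 with H2-Ab1, 0.850 with H2-DMb1 and 0.817 with H2-DMa (Spearman's rho 0.959, 0.965, 0.849, 0.852 and 0.799). Each of the 5 Pearson values had a permutation p of 1e-05, the smallest that 100000 resamples can give, and an adjusted p of 2e-05 over the 12 relations computed with Cd74. After subtracting group means the same r values were 0.959, 0.966, 0.924, 0.824 and 0.831, so they did not rest on differences between groups. Without Recovery week 13 library 2 and Recovery week 7 library 1, the 2 libraries farthest from the median of Cd74, they were 0.959, 0.956, 0.847, 0.792 and 0.740. Within the 9 libraries of Recovery weeks 7 to 13 all 5 were between 0.915 and 0.992, and within the 13 libraries of weeks 5 and 19 between 0.884 and 0.988. Libraries also share depth and scaling in such a relation.

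Ciita, the known activator of these genes, was scattered against them. Its r with Cd74 was 0.239 (rho 0.143, permutation p = 0.262, adjusted p = 0.262 over the 12 relations), and with the 6 genes it lay between 0.229 and 0.445. At a mean of 0.160 FPKM its values rest on few fragments, and pairs among the 6 had r from 0.738 to 0.970.

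**Figure D3:**
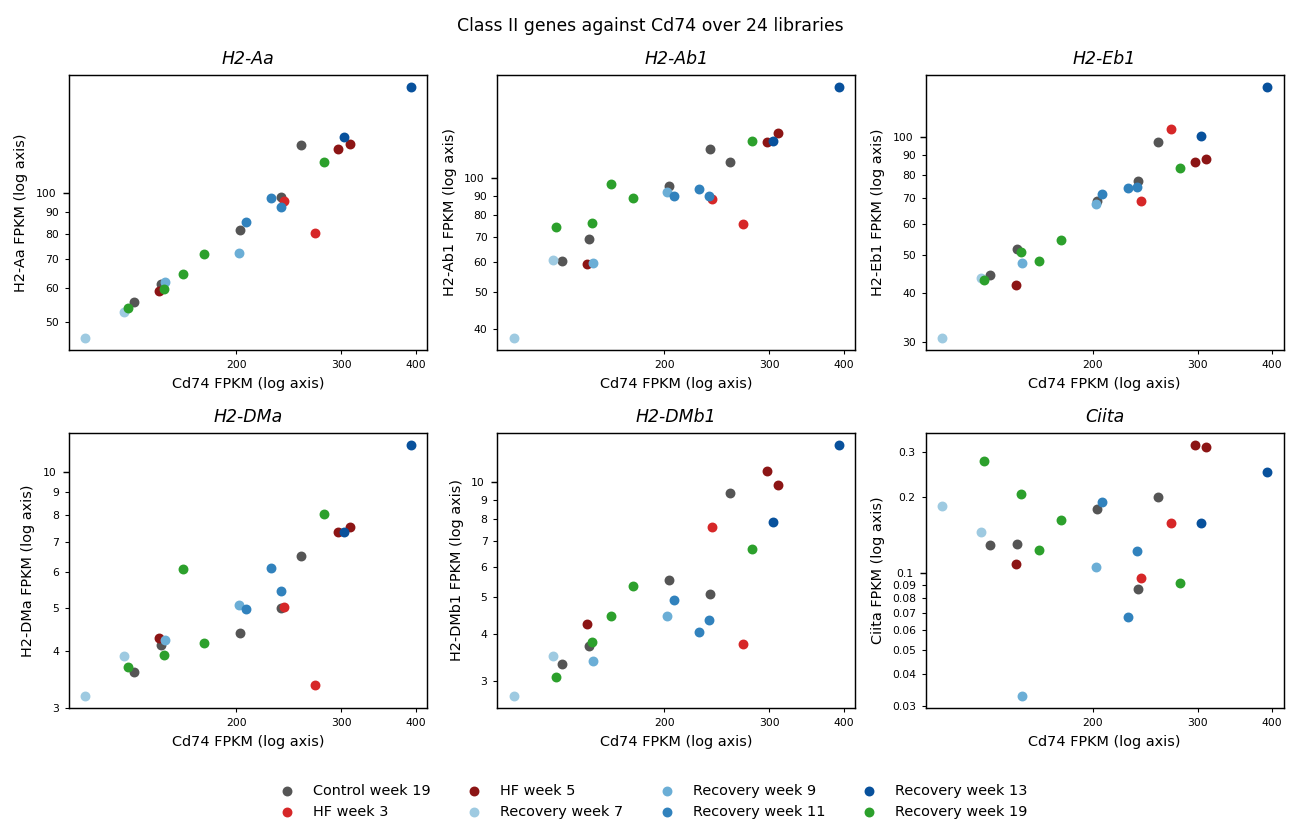
FPKM of 6 class II genes against Cd74 in 24 libraries (log axes, coloured by group). H2-Aa and H2-Eb1 lay closest to a line (r 0.969 and 0.970), and Ciita was scattered (r 0.239), while HF week 3 library 1 lay off the line in most panels.

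Among all genes past the filter, those most like the mean of H2-Aa, H2-Ab1, H2-Eb1 and Cd74 were ranked by Pearson r over the 24 libraries, with the 7 class II genes themselves left out of every ranking. H2-K1, a classical class I heavy chain, came first with 0.879, or 0.958 after subtracting group means. Tyrobp (0.818, a signalling adaptor of myeloid cells), Cd52 (0.815, a leukocyte surface glycoprotein), H2-Q7 (0.815, a nonclassical class I gene), C1qa (0.805, a complement chain made by macrophages), Lst1 (0.802), Irgm2 (0.799, an interferon-induced GTPase), Cyba (0.796, a subunit of the phagocyte NADPH oxidase), a gene listed in a date form as 15-Sep (0.795) and AK209885 (0.794) followed. H2-DMa was most like Rab11a (0.870), B2m (0.864) and Pld4 (0.862), and H2-DMb1 most like H2-K1 (0.855), Cd52 (0.848) and Irgm2 (0.834). Ciita was most like Bmp2k (0.682), Gbp6 (0.656) and Ptpn12 (0.651). Class I genes have near-identical copies, between which reads may be split.

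The remaining class II genes were near the floor. None of the 5 genes H2-DMb2, H2-Oa, H2-Ob, H2-Eb2 and H2-Ea-ps reached a mean of 0.5 FPKM. H2-Ob, the beta chain of the H2-DM inhibitor H2-DO, was the highest at 0.343 FPKM. It was at 0.735 ± 0.233 FPKM (SD, n = 3) in HF week 5 and 0.297 ± 0.186 (SD, n = 5) in Control week 19. Fitted without the filter it differed by 0.64 (SE 0.166, adjusted p = 0.0231) between these groups and by -0.69 (SE 0.166, adjusted p = 0.0161) between Recovery week 19 and HF week 5, by limma. In that fit 8.47% and 8.43% of all genes were called, and the other 4 partner genes were not called in either comparison, with an adjusted p of 0.206 or more by limma. This test was read after its values had been seen, and H2-Ob was 0.533 to 0.990 FPKM in HF week 5, so that it was above at least 4 of the 5 controls in each library.

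Regulators of class II were compared in the same fits. At HF week 5 against Control week 19, 11.6% of all genes were called higher. Of 9 transcription factors of the module and of interferon signalling, 1 was higher and 0 lower at HF week 5 against Control week 19, with a list median of 0.12 beside 0.04 over all genes. The one was Rfxank, a subunit of the RFX complex, which rose by 0.53 (SE 0.164, adjusted p = 0.0260, limma) from 4.68 ± 0.323 FPKM (SD, n = 5) to 7.12 ± 1.98 (SD, n = 3). The list had 0 called without HF week 5 library 1 (4.21% of all genes higher) and without library 2 (11.4%), and 2 without Control week 19 library 5 (14.2%). Of the 13 tested genes of the interferon gamma pathway 1 was higher, the inhibitor Socs1 (0.84, adjusted p = 0.0381, limma), and 1 lower, the receptor chain Ifngr2 (-1.01, adjusted p = 0.00163, limma). The number higher ranged from 0, with a pseudocount of 0.1, to 5 of 13, without Control week 19 library 5, in a fit with 14.2% of all genes higher. It was 4 of 13 without HF week 5 library 2 (11.4% of all genes higher) and 0 without library 3 (9.33%). Ifng itself did not reach the filter, with a mean of 0.0148 FPKM.

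Of 9 endosomal processing genes, 3 were higher at HF week 5 against Control week 19 and 0 lower, beside 11.6% of all genes called higher. The number was 1 of 9 without HF week 5 library 1, beside 4.21% of all genes. Ctsz, a cathepsin, rose by 0.84 (SE 0.155, adjusted p = 0.000994, limma), from 41.8 ± 7.51 FPKM (SD, n = 5) to 74.6 ± 10.5 (SD, n = 3), and its groups did not overlap. Ctsh, another cathepsin, rose by 0.70 (SE 0.191, adjusted p = 0.0122, limma). At Recovery week 7 both were lower than at HF week 5, Ctsz by a difference of -1.19 (adjusted p = 0.00110, limma) and Ctsh by -0.77 (adjusted p = 0.0370, limma). Of 5 tested genes of turnover and costimulation, Cd86, a ligand of the T cell receptor CD28, rose by 0.60 (SE 0.206, adjusted p = 0.0394, limma) at HF week 5, and the other 4 were not called. This list had 0 called without HF week 5 library 1.

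Genes of class I presentation, the pathway for peptides from the cytosol, were in part higher in the same comparison. Of 17 genes 7 were higher and 0 lower at HF week 5 (list median 0.48), against 24.0% of all genes called in either direction. Tap1, a subunit of the peptide transporter, rose by 0.82 (SE 0.224, adjusted p = 0.0127, limma), Psmb8, an immunoproteasome subunit, by 0.78 (SE 0.250, adjusted p = 0.0293, limma) and H2-K1 by 0.74 (SE 0.227, adjusted p = 0.0228, limma). H2-K1 was at 193 to 365 FPKM in HF week 5 and at 119 to 251 in Control week 19, so its groups overlapped. B2m, the light chain of class I, had a difference of 0.48 (SE 0.296, adjusted p = 0.251, limma). At Recovery week 7, 8 of the 17 were lower than at HF week 5 and 0 higher, beside 6.75% of all genes called lower, and at Recovery week 19 the count was 7 lower and 0 higher, beside 24.2% called in either direction. These counts ranged from 0 to 11 and from 0 to 9 lower over the alternatives. They were 4 and 1 without HF week 5 library 1 (2.42% and 5.27% of all genes lower) and 5 and 0 without library 3 (5.59% and 9.59%). Over the alternatives the number higher at HF week 5 ranged from 3 to 10 of 17. It was 3 without HF week 5 library 1 (4.21% of all genes higher) or library 3 (9.33%), and 10 without both HF week 3 libraries (34.1% of all genes called in either direction). Whether the class I and class II lists differ was not tested.

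Markers of cells that could carry class II were counted in the same fits. Macrophage and monocyte markers had 2 of 20 genes higher at HF week 5 against Control week 19, a share near the 11.6% of all genes called higher (Ccr2 0.91, adjusted p = 0.0309, and Cx3cr1 0.90, adjusted p = 0.0231, both chemokine receptors, limma) and 6 of 20 lower at Recovery week 7 against HF week 5, beside 6.75% of all genes called lower. The number higher at HF week 5 ranged from 0 to 5 over the alternatives, with 5 of 20 without HF week 5 library 2 (11.4% of all genes higher) and 0 of 19 without library 3 (9.33%). The number lower at Recovery week 7 was 9 of 20 without HF week 5 library 2 (7.94% of all genes lower), 1 of 20 without library 1 (2.42%) and 1 of 19 without library 3 (5.59%). The summed level of the macrophage list was 350 to 564 FPKM in Control week 19, 639 to 966 in HF week 3, and 410 to 779 in HF week 5. Recovery week 7 gave 289 to 339 FPKM, Recovery week 13 gave 729 to 983 and Recovery week 19 gave 431 to 897. Recovery week 7 thus lay below all controls and Recovery week 13 above them, as did H2-Aa, H2-Eb1 and Cd74. Recovery week 11 sums, at 631 to 891 FPKM, were also above all controls, whereas H2-Aa, H2-Eb1 and Cd74 in that group were inside the control range. At HF week 3 the same sums were high while class II levels stayed within or near the control range. None of the 20 markers was at 0 throughout a group.

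Dendritic cell markers had 1 of 6 tested genes higher at HF week 5, Batf3 (1.00, adjusted p = 0.0477, limma), beside 11.6% of all genes called higher. The count was 0 without HF week 5 library 1 (4.21% of all genes higher) or library 3 (9.33%) and 2 of 6 without library 2 (11.4%). Their summed level was 8.43 to 12.3 FPKM in Control week 19, while HF week 5 gave 12.8 to 20.3, Recovery week 7 gave 8.12 to 10.2 and Recovery week 13 gave 14.1 to 17.0. B cell markers (2 of 9 past the filter) summed to 0.951 to 2.50 FPKM in Control week 19, 3.13 to 5.35 in HF week 5 and 3.01 to 3.12 in Recovery week 13, with Ms4a1, which encodes CD20, listed at 0 in both Recovery week 9 libraries. T cell markers (3 of 11 past the filter) summed to 2.79 to 3.62 FPKM in Control week 19, 4.24 to 6.20 in HF week 5, 2.44 in both Recovery week 7 libraries and 4.44 to 6.75 in Recovery week 13. No B or T cell marker was called at HF week 5 by limma, but both tested B cell markers (2 of 2) were called higher without both HF week 3 libraries, a fit with 34.1% of all genes called. The part of these cell types in the class II values was not tested.

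Across the 24 libraries Cd74 followed the summed class I list with r 0.891 (rho 0.903, adjusted permutation p = 2e-05), the macrophage list with 0.747 (rho 0.723, adjusted p = 0.000103), the dendritic cell list with 0.703 (rho 0.717, adjusted p = 0.000210) and the T cell list with 0.604 (rho 0.626, adjusted p = 0.00283), in the same 12 relations by permutation, with the p given being that of r. After subtracting group means these were 0.874, 0.708, 0.613 and 0.287, and without the 2 farthest libraries 0.865, 0.681, 0.670 and 0.475. The B cell list gave an r of 0.357 (adjusted permutation p = 0.0965) and a rho of 0.470 (adjusted permutation p = 0.0246), so only the rank relation passed 0.05. Its r was 0.211 after subtracting group means, 0.608 over the 9 libraries of Recovery weeks 7 to 13 and 0.631 over the 13 libraries of weeks 5 and 19. The endothelial list gave an r of 0.389 (adjusted permutation p = 0.0715) and a rho of 0.277 (adjusted permutation p = 0.211), and an r of 0.536 after subtracting group means, 0.126 over those 9 libraries and 0.600 over those 13. The macrophage relation was 0.905 over the 9 libraries of Recovery weeks 7 to 13 and 0.523 over the 13 libraries of weeks 5 and 19.

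**Figure D4:**
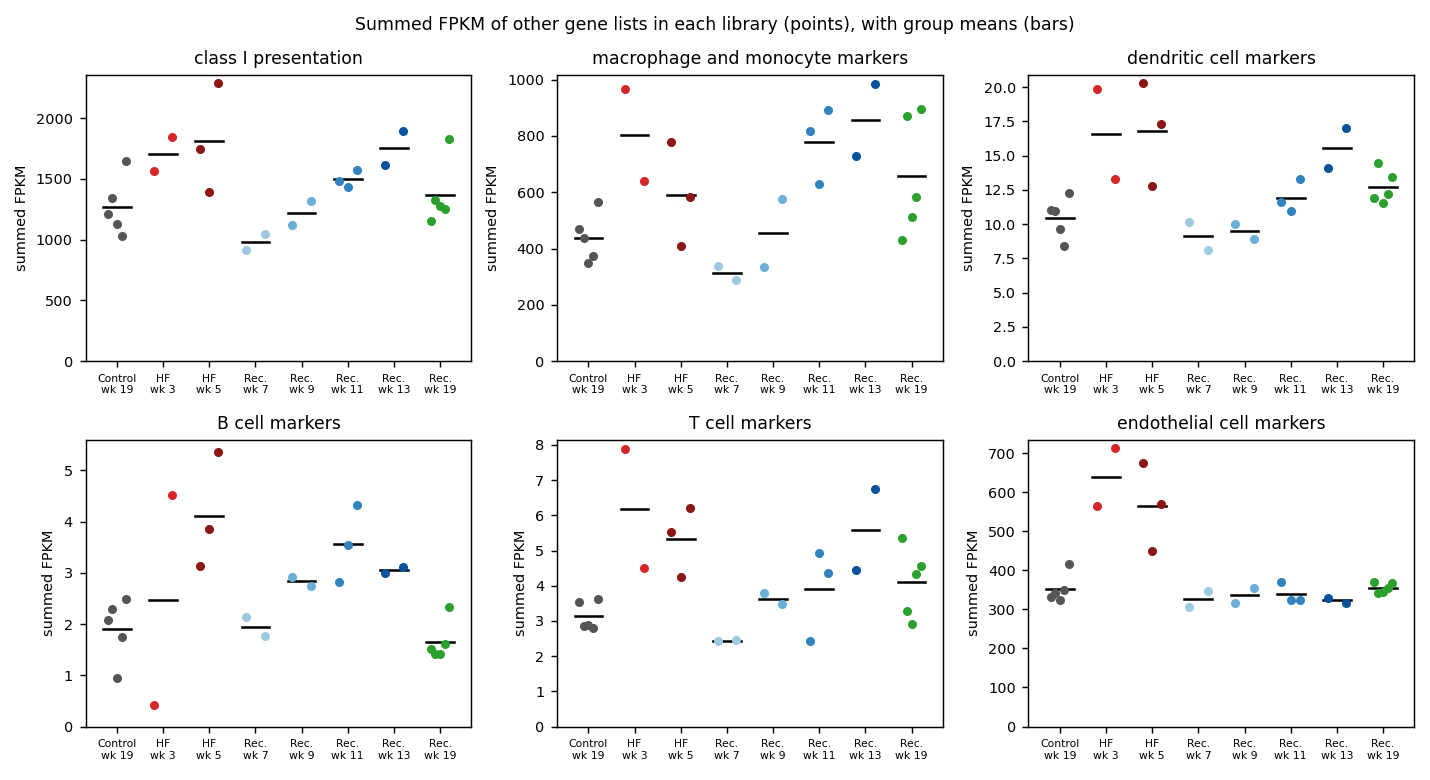
Summed FPKM of 6 gene lists in each library (points, axes from 0) with group means as bars. Class I, macrophage, dendritic cell and T cell lists were low in Recovery week 7 and higher in Recovery week 13, as the class II genes were, whereas the endothelial list was highest in HF weeks 3 and 5. The sums were not rescaled to the summed FPKM of the library, which was higher in Recovery week 13 than in Recovery week 7.

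Endothelial markers did not share the high level of Recovery week 13. Of 8 endothelial markers 5 were higher at HF week 5 against Control week 19, led by Egfl7 (1.00, adjusted p = 8.36e-05, limma), and 6 of 8 fibroblast markers were higher, led by Postn (1.81, adjusted p = 0.000839, limma), beside 11.6% of all genes called higher. These counts were 4 of 8 and 1 of 8 without HF week 5 library 1, beside 4.21% of all genes called higher, and the fibroblast count was 3 of 8 without library 3, beside 9.33%. At Recovery week 7 against HF week 5, 5 of 8 endothelial and 3 of 8 fibroblast markers were lower, beside 6.75% of all genes called lower. Over the alternatives with an adjusted p these numbers lower ranged from 1 to 5 and from 0 to 5. The summed endothelial level was 325 to 417 FPKM in Control week 19, with 448 to 674 in HF week 5. Recovery week 7 gave 305 to 346 and Recovery week 13 gave 317 to 330. The summed fibroblast level was 253 to 360 FPKM in Control week 19, with 357 to 707 in HF week 5, while Recovery week 7 gave 269 to 355 and Recovery week 13 gave 389 to 504. The fibroblast sums of the last 2 groups did not overlap, but they were not rescaled to the library sum. Their nearest libraries, at 355 and 389 FPKM, had summed FPKM without Myh6 of 638721 and 1016445. Of 8 cardiomyocyte markers 1 was lower at HF week 5, Pln (-0.87, adjusted p = 0.0157, limma), the regulator of the calcium pump, beside 12.4% of all genes called lower, and 0 were without HF week 5 library 1, beside 6.45%. Myh6 is 1 of these 8 markers, and since it is listed at 0 in every library of both groups it could not be called.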

How the data were processed

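Poly(A) RNA of mouse hearts was sequenced as paired ends. Per the study's methods and the submitters' processing notes, the authors aligned reads with TopHat2 to mm9 and computed FPKM with Cuffdiff. The annotation and the scaling between libraries are not given in the sources used here. The deposited table holds FPKM per gene symbol, with no counts, so absolute depth is unknown. Relative depth, read from the steps of low values in 23 libraries, ranged from 0.742 to 1.40 of the median library, which limits low genes such as Ciita most.

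Columns were matched to groups by name, giving 24 libraries in 8 groups of the 9 labelled (29 labelled samples). The 5 columns of Control week 5 outnumber its 4 labelled samples and were not used. Recovery week 9 has 3 labelled samples and 2 columns, both used. Genes averaging 0.5 FPKM or more (12759 of 29955) were tested as log2(FPKM + 0.5) with limma 3.58.1 in R 4.3.3, with 8 group means, 16 residual degrees of freedom, eBayes with a trend, two-sided, and called at a Benjamini-Hochberg adjusted p under 0.05. The code was tested on simulated data. Correlations used 100000 two-sided permutations of the libraries, with a seed. Figures were drawn with matplotlib 3.10.9 under Python 3.11.15, with numpy 2.4.6 and pandas 2.3.3.

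The members, the 13 gene lists and the tests were chosen with earlier results of these data known. Named genes were the 7 members, the 2 largest called rises and falls of each list at HF week 5 against Control week 19 with the most abundant gene of each list, and the genes of highest Pearson r. Named apart from that rule, after their values were seen, were Myh6, Myl7, H2-K1 as a class I gene, Ifng, Ms4a1 and the low class II partner genes. March1 and March8 were not matched, since the table gives some symbols as dates. Promoters come from the RefSeq windows of GRCm38.p6. Alternatives changed the pseudocount, filter, adjustment, scaling, variance estimate, groups in the fit and libraries.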

Additional observations from a re-analysis of the deposited data

Results flagged for a closer look

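In Recovery week 19, 1 library lay far from the other 4 for 2 genes. H2-Aa was at 118 FPKM in library 5, and the next library was at 72.0, a gap of 0.719 of the group's range against a critical value of 0.71. H2-Eb1 was at 83.2 FPKM in the same library with the next at 54.5, a gap of 0.717 of the range. Of 14 combinations of gene and group of 5 libraries examined, these 2 passed, where chance passes a share of about 0.05, and the genes are not independent of one another. Cd74 was also highest in that library, at 281 FPKM, below the value for passing.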

How the results depend on the processing

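The count of class II genes called at Recovery week 7 against HF week 5 (3 of 6), with 6.75% of all genes called lower, became 0 with no filter on low values (1.51% lower), with only the groups compared in the fit (1.09%), with median centring (4.87%), with each library scaled to one sum without Myh6 (2.67%), and without both HF week 3 libraries and HF week 5 library 1 (6.65%). It became 1 without both Recovery week 13 libraries (5.84%), 5 with quantile normalization (7.40%) and 6 with the unadjusted p (15.4%). With the unadjusted p the count was 1 of 6 at Recovery week 19 against HF week 5 and 6 of 6 at Recovery week 13 against Recovery week 7 and against Control week 19. With only the groups compared in the fit it was 6 of 6 at Recovery week 13 against Recovery week 7. Leaving out 1 library gave 0 to 6 at Recovery week 7 against HF week 5, 0 to 1 at HF week 5 against Control week 19 and 0 to 3 at Recovery week 19 against HF week 5, the highest each without HF week 5 library 2. The cause was not tested.

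The H2-Eb1 difference at HF week 5 against Control week 19 ran from -0.11 to 0.42 when 1 library was left out, and was -0.01 without Control week 19 library 3, -0.07 without library 4, -0.10 without HF week 5 library 1, -0.11 after scaling without Myh6 and -0.10 without the HF week 3 libraries and HF week 5 library 1. For H2-Ab1 it ran from -0.031 to 0.54 and was -0.0064 after that scaling. H2-Ab1 at Recovery week 19 against HF week 5 ran from -0.49 to 0.074, and was 0.035 without HF week 5 library 1, 0.021 after that scaling and 0.035 without the 3 libraries. The scalings without Myh6 and the sets without Recovery week 13 or the 3 libraries were added after the data were seen. That scaling moved the median of all genes from -0.05 to 0.19 at Recovery week 7 against HF week 5. Of the other alternative values, 160 counts of calls and 491 values by gene or median kept their direction and call, while 29 values by gene lost a call and 26 gained one. Control week 5 could not replace Control week 19, because its columns could not be matched to samples. No paired analysis was possible because the columns carry no labelled replicate numbers.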
